A study of Mus musculus with 4 samples.

Results

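Sarcomere genes encode the contractile apparatus of skeletal and heart muscle. They were examined in RNA of brown adipose tissue (BAT), the heat-producing fat of mice, as a measure of muscle RNA in isolated mitochondria. The members were 40 genes named by symbol, from the myosins, troponins, actins, giant proteins, Z-disc proteins and calcium-handling proteins of striated muscle. Of these, 38 had a row in the table of 17259 genes, and Myl2 and Tnni1 were not analysed here. The genes were read as fast skeletal (14 genes), slow skeletal or shared by slow muscle and ventricle (9 genes, 7 listed), heart (3 genes) and common to striated muscle (14 genes).

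The series compared 2 libraries of mitochondria isolated from BAT (BAT-Mito) with 2 libraries named BAT-total, all 4 from WT mice. The treatment label of BAT-total names tissue without its mitochondria, whereas the titles and the study speak of total tissue, and which of these the libraries hold could not be settled here. Mitochondria were separated by differential centrifugation, 10 ng of RNA entered each library, and fragmentation time was adjusted for mitochondrial samples. The isolation protocol of the study, written for heart, also treated mitochondria with digitonin and RNase A before RNA was extracted. Its effect on the values was not tested. Neither age, sex nor the number of animals behind a library is given, and nothing says that replicates came from separate animals, so that the p-values measure only the spread between these libraries, which may be technical.

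The sarcomere is built from thick filaments of myosin and thin filaments of actin. Calcium released from the sarcoplasmic reticulum binds troponin C, tropomyosin moves on the thin filament, and myosin heads can then pull. Titin spans from the Z-disc to the middle of the sarcomere and nebulin lies along the thin filament of skeletal muscle. Most parts come in isoforms: type II fibres use fast myosins, troponins and the fast calcium pump, type I fibres share several isoforms with the ventricle, and the adult mouse heart uses Myh6, the alpha myosin heavy chain. Brown adipocytes and skeletal muscle share early progenitors, but mature brown adipocytes build no sarcomeres.

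The promoters of 4 members are shown because these genes separate fast muscle (Myh4), skeletal muscle (Acta1) and heart (Myh6 and Actc1) in the values that follow. The sequences are RefSeq windows of 180 bases on GRCm38.p6, from 150 bases before the start of a RefSeq transcript to 30 after it. They are written 5′ to 3′ in the direction of transcription, with TATAAA, the letters of the TATA box, and matches to the CArG box, which binds serum response factor, in capitals. In the Myh6 window TATAAA lies just after the transcript start used here, and in the Acta1 window just before it. The capitals therefore mark matches of letters only.
Myh4, fast myosin heavy chain IIb, chr11:67237662-67237841, plus strand: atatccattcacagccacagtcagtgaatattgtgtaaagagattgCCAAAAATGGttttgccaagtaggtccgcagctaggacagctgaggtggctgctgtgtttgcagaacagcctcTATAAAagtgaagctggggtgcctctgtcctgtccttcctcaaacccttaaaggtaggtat
Acta1, skeletal alpha-actin, chr8:123894746-123894925, minus strand: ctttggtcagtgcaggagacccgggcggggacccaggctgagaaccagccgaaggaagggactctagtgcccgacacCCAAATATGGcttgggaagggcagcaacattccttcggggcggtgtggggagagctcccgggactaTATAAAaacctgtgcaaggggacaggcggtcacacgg
Myh6, cardiac alpha myosin heavy chain, chr14:54966578-54966757, minus strand: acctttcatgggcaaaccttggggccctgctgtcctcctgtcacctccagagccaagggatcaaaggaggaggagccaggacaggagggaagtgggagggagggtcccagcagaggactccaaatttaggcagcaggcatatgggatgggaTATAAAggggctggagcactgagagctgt
Actc1, cardiac alpha-actin, chr2:114052846-114053025, minus strand: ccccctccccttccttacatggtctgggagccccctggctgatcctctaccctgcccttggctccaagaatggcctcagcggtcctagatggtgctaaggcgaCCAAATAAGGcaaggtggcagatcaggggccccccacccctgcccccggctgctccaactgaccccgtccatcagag

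The table of promoter windows (250 bases before the start and 50 after it, 300 in all) held 33 of the 40 members in 44 windows. A CArG box, the motif shown in capitals in both alpha-actin promoters and in Myh4, was found in 8 of these 44 windows and in 1.63% of all 32851 windows. The members with a match were Acta1, Actc1, Ldb3, Myh4, Myl3, Myom1 and Nebl. The MEF2 consensus was matched in 4 of 44 windows (Myh1, Myh4, Pvalb and Ttn) against 3.19% of all windows. TATAAA was present in 10 of 44 windows against 13.6%, and the E-box CANNTG, bound by the MyoD family, in 37 of 44 against 72.3%. Both strands were searched, and a match is a description of the letters, not a binding site.

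In mitochondria libraries nuclear transcripts were few. The recovered reads came to 26288871 and 24910434 in BAT-Mito replicates 1 and 2, of which 59288 and 67370 lay on nuclear genes that do not match mitochondrial transcripts. Mitochondrial genes held 95.3% and 95.5% of BAT-Mito and 51.1% and 59.3% of BAT-total. In BAT-total the normalised totals were 1590096 and 1905303, and the reads behind them are unknown. Values are normalised counts, that is gene counts divided by a size factor per library, and 1 read was worth 8.32 and 6.90 of these units in BAT-Mito replicates 1 and 2. A count of 0 there allows up to 3 reads, 25.0 and 20.7 units, whereas no such floor could be given for BAT-total. In bulk samples, fewer cells of a type and less RNA per cell cannot be told apart.

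Sarcomere transcripts took a larger share of the nuclear signal in BAT-Mito than in BAT-total. The 38 listed members together held 2.21% of the nuclear signal in BAT-Mito replicate 1 (95% Wilson interval 2.09 to 2.33%, 1310 reads) and 1.04% in replicate 2 (0.971 to 1.13%, 704 reads). In BAT-total they held 0.194% and 0.353%. The means were 1.63% ± 0.826 and 0.273% ± 0.113 (SD, n = 2 each), a ratio of 5.95, and the groups did not overlap. Both BAT-Mito libraries lay above both BAT-total libraries, but they differed from each other by 2.12 times. Wilson intervals cover counting error only, since reads are not independent molecules.

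This direction holds for the nuclear signal without 17 nuclear genes that match mitochondrial transcripts. These genes held 4.52% and 4.26% of all signal in BAT-Mito, more than all other nuclear genes together (0.226% and 0.271%). Against all nuclear genes the members' share was 0.105% and 0.0623% in BAT-Mito and 0.184% and 0.330% in BAT-total. Against the whole table it was 0.00498% and 0.00283% in BAT-Mito and 0.0898% and 0.135% in BAT-total, so that on both of these scales the members were lower in BAT-Mito.

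Gene by gene, 26 of the 38 listed members were higher in both BAT-Mito libraries than in both BAT-total libraries, against 5.2% of all 17259 genes. By class these were 9 of 14 fast genes, 2 of 7 slow genes, 2 of 3 heart genes and 13 of 14 common genes. Tnnt1 and Ldb3 lay lower in both BAT-Mito libraries, each with 0 reads there and at most 5 normalised counts in BAT-total. A count of 0 in BAT-Mito allows up to 25.0 and 20.7 units, so that a lower level is not shown for these 2 genes. Among genes with a BAT-total mean of at least 10, a choice that does not use the BAT-Mito values, 16 of 22 members were higher in both BAT-Mito libraries, against 4.69% of 8641 genes.

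**Figure D1:**
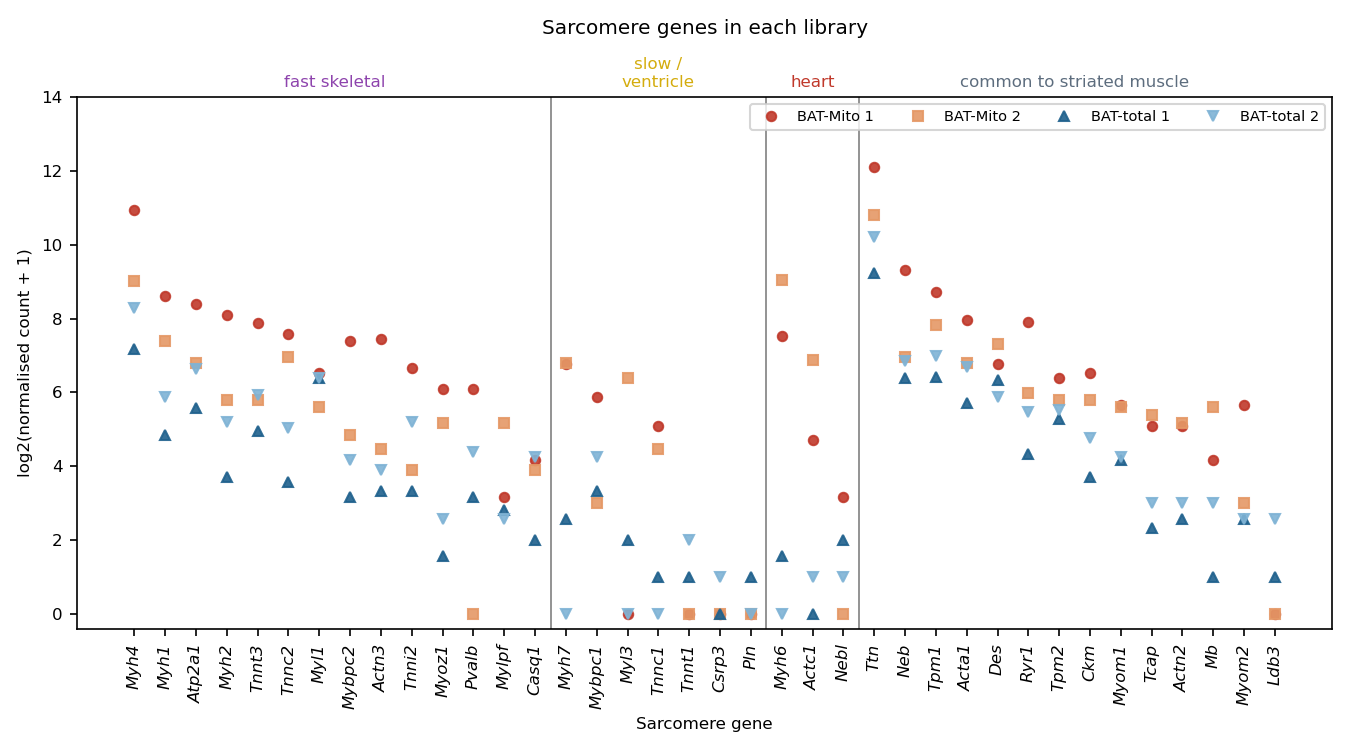
Each sarcomere gene (x axis, sorted by class and mean level) is plotted at its log2(normalised count + 1) in the 4 libraries, circles and squares for BAT-Mito replicates 1 and 2, upward and downward triangles for BAT-total replicates 1 and 2. Fast genes mostly run from BAT-Mito replicate 1 down to BAT-total replicate 1, while Myh6 and Actc1 are highest in BAT-Mito replicate 2.

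The fold change of each gene was tested with limma on log2(normalised count + 1) over the 8215 genes with a mean of at least 10, with Benjamini-Hochberg adjustment. Of the 33 members tested, 0 were called higher (0.803% of all genes tested) and 0 lower (4.41%) at an adjusted p under 0.05. At an unadjusted p under 0.05 limma found 11 members higher (3.2% of all genes tested) and 0 lower. With edgeR's quasi-likelihood test on reads, in which the BAT-total values were taken as reads, 11 members were called higher (3.06% of all genes tested) and 0 lower (0.596%). These were Myh1, Myh2, Myh4, Mybpc2, Actn3, Tnnc2, Myoz1, Myh7, Myh6, Actc1 and Ryr1, and the test treats BAT-total as if each unit were a read. Leaving out BAT-Mito replicate 1 or replicate 2 gave 7 and 10 calls with limma, against 5.68% and 7.57% of all genes tested. Scaling to the library total over all genes turned the direction, with 28 of 33 members called lower against 96.9% of all genes. The median log2 fold change was 1.95 for the members tested and -1.23 for all genes tested. Of these 33 members, 11 had a BAT-total mean under 10 and passed the filter only through BAT-Mito, among them Myoz1, Myh7, Tnnc1, Myh6, Actc1, Actn2 and Tcap, so that these counts and this median are no support for a difference. With a filter on the BAT-total mean alone, limma found 4 of 22 members higher at an unadjusted p under 0.05 (1.17% of 8641 genes) and 0 at an adjusted p under 0.05, and edgeR called 15 of 22 higher (2.18%). For these 22 members the median lay 3.09 above that of the genes tested with the same filter in limma.

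**Figure D2:**
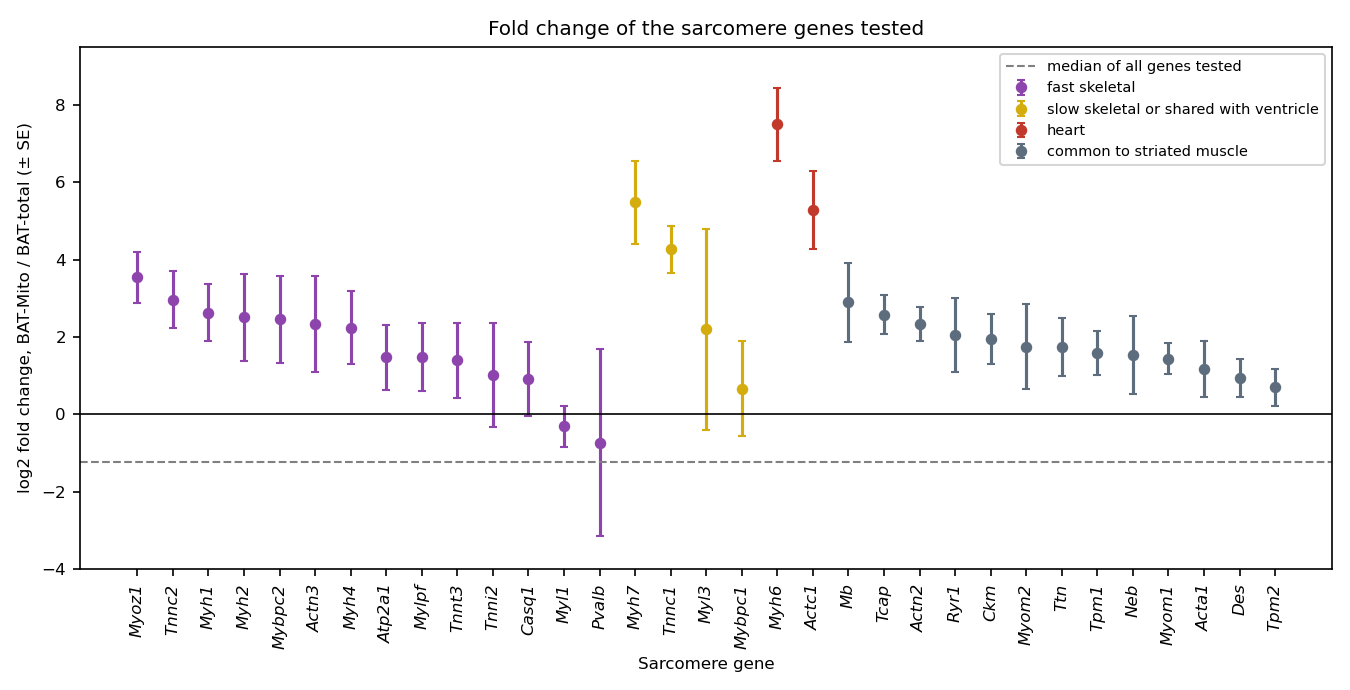
Points are limma log2 fold changes of BAT-Mito over BAT-total for the 33 members tested, bars are standard errors, colours mark the classes and the dashed line is the median of all genes tested, -1.23. Myl1 and Pvalb lie below 0, and the 2 heart genes and Myh7 lie highest with an adjusted p of 0.05003 or more in limma.

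Fast skeletal genes made up the larger part of the isoform-specific signal. Together they held 0.824% (0.754 to 0.899%) and 0.263% (0.227 to 0.304%) of the nuclear signal in BAT-Mito and 0.0542% and 0.110% in BAT-total. The means were 0.543% ± 0.397 and 0.0819% ± 0.0391 (SD, n = 2 each). The intervals of the BAT-Mito replicates do not touch, replicate 1 being the higher, and BAT-total replicate 2 stood above BAT-total replicate 1.

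The 3 fast myosin heavy chains, the motors of type II fibres, lie in a cluster on chromosome 11. Myh4, the IIb isoform of the fastest fibres (GRCm38 chr11:67238029-67260446, plus strand), had 1947 and 518 normalised counts in BAT-Mito (234 and 75 reads) and 144 and 311 in BAT-total. Its log2 fold change was 2.24 ± 0.94 (SE, limma adjusted p = 0.314, edgeR adjusted p = 0.0377). Myh1, the IIx isoform, had 391 and 166 in BAT-Mito and 28 and 58 in BAT-total, a log2 fold change of 2.63 ± 0.74 (limma adjusted p = 0.235, edgeR adjusted p = 0.0125).
Myh2, the IIa isoform of fast oxidative fibres, had 275 and 55 in BAT-Mito and 12 and 36 in BAT-total. All 3 were higher in both BAT-Mito libraries, and per kb of exon the order was Myh4, Myh1, Myh2 in 4 of 4 libraries. Of the 75-base stretches of their exons, 90.3% were unique to Myh4, 84.2% to Myh1 and 86.1% to Myh2, so that reads on shared stretches, which the counting left out, are missing from each.

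The fast troponins place calcium control on the thin filament. Tnnc2, fast troponin C, had 191 and 124 normalised counts in BAT-Mito and 11 and 32 in BAT-total, with a log2 fold change of 2.96 ± 0.73 (limma adjusted p = 0.208, edgeR adjusted p = 0.0048). Per kb of exon it was the leading member in BAT-Mito replicate 2 (155 normalised counts per kb) and the second in replicate 1 (239, after Myh4 at 324). Both of these places are levels per length and not fold changes, and 74.0% of its exon bases lie in Ube2c on the other strand, whose reads cannot be told apart if the counting did not use strand. Tnnt3, fast troponin T, had 233 and 55 in BAT-Mito and 30 and 60 in BAT-total. Tnni2, the inhibitory subunit, had 100 and 14 in BAT-Mito and 9 and 36 in BAT-total. Tnnc2 thus separated the groups, while for Tnnt3 and Tnni2 the second BAT-Mito library fell among the BAT-total values.

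Genes of the fast thick filament and Z-disc were uneven between the BAT-Mito replicates. Mybpc2, fast myosin-binding protein C, had 166 and 28 normalised counts in BAT-Mito and 8 and 17 in BAT-total. Actn3, the alpha-actinin of fast Z-discs, had 175 and 21 in BAT-Mito and 9 and 14 in BAT-total. Both were higher in both BAT-Mito libraries, with 4 and 3 reads in the lower one. Myoz1, a calcineurin-binding Z-disc protein, had 67 and 35 in BAT-Mito and 2 and 5 in BAT-total.
The fast light chains differed from these. Myl1, the essential light chain, had 92 and 48 in BAT-Mito and 83 in each BAT-total library, a log2 fold change of -0.32 ± 0.54 (limma adjusted p = 0.712). Mylpf, the regulatory light chain, had 8 and 35 in BAT-Mito and 6 and 5 in BAT-total. Myl1 was the leading member per kb in BAT-total replicate 1 (40.02 normalised counts per kb) and was not higher in BAT-Mito, whereas Mylpf was higher in both BAT-Mito libraries with only 1 and 5 reads.

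Fast calcium handling was read from 3 genes. Atp2a1, the fast calcium pump SERCA1, had 333 and 110 normalised counts in BAT-Mito and 47 and 99 in BAT-total. Casq1, the calcium store of the reticulum, had 17 and 14 in BAT-Mito and 3 and 18 in BAT-total. Pvalb, the calcium buffer of fast fibres, had 67 and 0 in BAT-Mito and 8 and 20 in BAT-total. Atp2a1 alone of these was higher in both BAT-Mito libraries, and a count of 0 for Pvalb in replicate 2 allows up to 20.7 units, so that no difference was detectable there.

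Of the 3 heart genes, Myh6 and Actc1 were at 0 to 2 units in BAT-total and higher in both BAT-Mito libraries, at few reads. The heart class held 0.0438% (0.0299 to 0.0643%, 26 reads) and 0.139% (0.114 to 0.171%, 94 reads) of the nuclear signal in BAT-Mito and 0.000678% and 0.000276% in BAT-total. Against the whole table its share was 9.87e-05% and 0.000377% in BAT-Mito and 0.000314% and 0.000105% in BAT-total, where the groups overlapped. Myh6 (GRCm38 chr14:54941921-54966927, minus strand) had 183 and 531 normalised counts in BAT-Mito (22 and 77 reads) and 2 and 0 in BAT-total. Its log2 fold change was 7.50 ± 0.94 (limma adjusted p = 0.05003, edgeR adjusted p = 0.000125). Actc1, cardiac alpha-actin, had 25 and 117 in BAT-Mito (3 and 17 reads) and 0 and 1 in BAT-total, a log2 fold change of 5.29 ± 1.01 (limma adjusted p = 0.143, edgeR adjusted p = 0.00337). The groups did not overlap for either gene, and BAT-Mito replicate 2 was the higher library for both. Both genes entered the test only through BAT-Mito, where they are high, so that their p-values are no support for a difference. With 0 to 2 units in BAT-total the fitted folds depend on the pseudocount, the log2 fold change being 4.88 for Myh6 and 2.67 for Actc1 with a pseudocount of 10, and no counting interval can be given where reads are unknown. Nebl, a nebulin-like Z-disc protein, had 8 and 0 in BAT-Mito and 3 and 1 in BAT-total, and was not tested.

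The slow genes showed a mixed picture. Their class held 0.0404% (0.0272 to 0.0602%, 24 reads) and 0.0474% (0.0337 to 0.0670%, 32 reads) of the nuclear signal in BAT-Mito and 0.00271% and 0.00303% in BAT-total, and the BAT-Mito replicates did not differ beyond counting error. Myh7, the myosin of type I fibres and the beta myosin of the heart, had 108 and 110 normalised counts in BAT-Mito (13 and 16 reads) and 5 and 0 in BAT-total, a log2 fold change of 5.49 ± 1.07 (limma adjusted p = 0.150, edgeR adjusted p = 0.00066), which became 3.28 with a pseudocount of 10. Tnnc1, troponin C of slow muscle and heart, had 33 and 21 in BAT-Mito and 1 and 0 in BAT-total. These were the 2 slow genes that were higher in both BAT-Mito libraries, and with BAT-total means under 10 both entered the test only through BAT-Mito, so that their p-values are no support for a difference.
Myl3, the light chain of slow muscle and ventricle, had 0 and 83 in BAT-Mito (0 and 12 reads) and 3 and 0 in BAT-total. Mybpc1, slow myosin-binding protein C, had 58 and 7 in BAT-Mito and 9 and 18 in BAT-total. Myl3 followed the heart genes in being highest in BAT-Mito replicate 2, and Mybpc1 followed the fast genes. Tnnt1, the slow troponin T that the ventricle lacks, had 0 reads in both BAT-Mito libraries and 1 and 3 units in BAT-total. Csrp3, a Z-disc protein, and Pln, the regulator of the calcium pump of slow muscle and heart, had 0 reads in BAT-Mito and at most 1 unit in BAT-total.

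**Figure D3:**
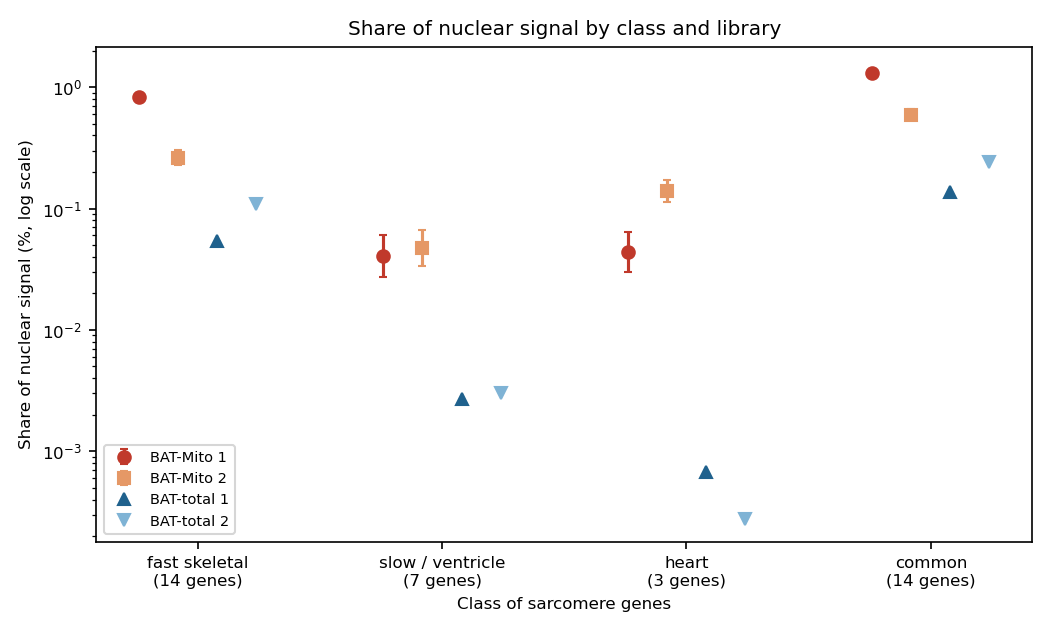
The share of nuclear signal (percent, log axis, without the 17 genes matching mitochondrial transcripts) is plotted by class for each library, with 95% Wilson intervals for BAT-Mito, where reads were recovered. Every class is higher in both BAT-Mito libraries on this scale, and the order of the BAT-Mito replicates is reversed between the fast and the heart class.

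The myosin heavy chains differ in make-up between libraries. Of the signal on the 5 myosins, Myh6 made up 6.30% (4.199 to 9.36%, 349 reads) in BAT-Mito replicate 1 and 38.5% (32.0 to 45.4%, 200 reads) in replicate 2. Myh4 made up 67.1% (62.0 to 71.8%) and 37.5% (31.1 to 44.4%) in the same libraries. In BAT-total Myh4 made up 75.4% and 76.8% and Myh6 1.05% and 0%. BAT-Mito replicate 2 was thus the library in which fast and heart myosin were near each other, and the intervals of the BAT-Mito replicates do not touch for either gene. Per kb of exon the share of Myh6 was 5.87% and 37.3% in BAT-Mito. The actins ran alongside: the ratio of Actc1 to Acta1 normalised counts was 0.1 in BAT-Mito replicate 1, 1.06 in replicate 2, 0 in BAT-total replicate 1 and 0.00971 in replicate 2. Myh6 and Myh7 lie 3756 bp apart and share 947 stretches of 75 bases, with 86.3% and 89.4% of their stretches unique.

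**Figure D4:**
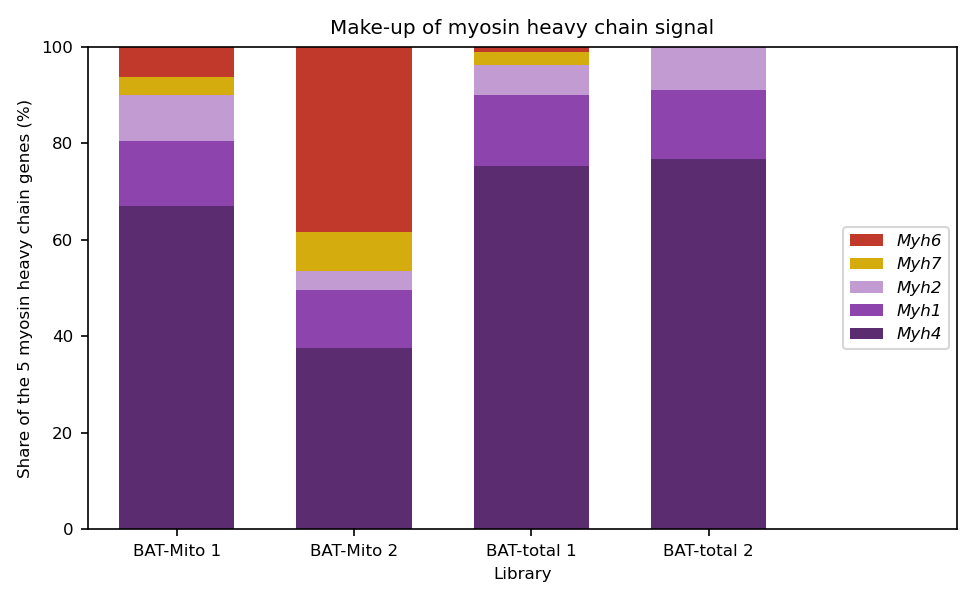
Stacked bars give the share (percent, from 0 to 100) of each of 5 myosin heavy chain genes in their summed normalised counts, 1 bar per library. Myh6 takes 38.5% in BAT-Mito replicate 2 and at most 6.30% in each of the other 3 libraries.

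The class called common to striated muscle, in which Acta1, Neb and Ryr1 belong mainly to skeletal muscle, held the most signal. The class held 1.30% (1.21 to 1.40%) and 0.594% (0.540 to 0.656%) of the nuclear signal in BAT-Mito and 0.136% and 0.241% in BAT-total. Ttn, which encodes titin, had 4402 and 1794 normalised counts in BAT-Mito (529 and 260 reads) and 602 and 1178 in BAT-total, a log2 fold change of 1.74 ± 0.74 (limma adjusted p = 0.316). Its exons span 116825 bp in all and it made up 36.9 to 46.0% of the members' signal in each library. Per kb of exon it stood at 37.7 and 15.4 in BAT-Mito and 5.15 and 10.1 in BAT-total, below Acta1 in each library.
Neb, nebulin, had 641 and 124 in BAT-Mito and 83 and 115 in BAT-total. Acta1, skeletal alpha-actin, had 250 and 110 in BAT-Mito and 52 and 103 in BAT-total. For Ttn, Neb and Acta1 BAT-Mito replicate 2 lay above BAT-total replicate 2 by less than the BAT-Mito replicates differed.

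Among the other common genes, the tropomyosins were Tpm1, with 424 and 228 in BAT-Mito and 84 and 127 in BAT-total, and Tpm2, with 83 and 55 against 38 and 45. Both are also made outside striated muscle. Des, the intermediate filament desmin, which smooth muscle also makes, had 108 and 159 in BAT-Mito and 80 and 58 in BAT-total. Ryr1, the calcium release channel of skeletal muscle, had 241 and 62 in BAT-Mito and 19 and 43 in BAT-total, a log2 fold change of 2.06 ± 0.96 (limma adjusted p = 0.330, edgeR adjusted p = 0.0301). Tpm2 had the smallest log2 fold change of the class, 0.70 ± 0.47, and Ryr1 was its only member called with edgeR under the filter on the mean of all 4 libraries.
Ckm, the muscle creatine kinase, had 92 and 55 in BAT-Mito and 12 and 26 in BAT-total. Mb, myoglobin of oxidative fibres and heart, had 17 and 48 in BAT-Mito and 1 and 7 in BAT-total. Both stood higher in both BAT-Mito libraries, Ckm more so in replicate 1 and Mb in replicate 2. Tcap, the titin cap, had 33 and 41 in BAT-Mito and 4 and 7 in BAT-total. Actn2, the alpha-actinin of all fibres and of heart, had 33 and 35 against 5 and 7. Myom1, an M-band protein, had 50 and 48 against 17 and 18. These 3 genes differed little between the BAT-Mito replicates. Myom2, its partner in fast fibres, had 50 and 7 against 5 and 5, and Ldb3, a Z-disc protein, had 0 reads in both BAT-Mito libraries and 1 and 5 units in BAT-total. Mb, Tcap, Actn2 and Des were the common genes at a higher value in BAT-Mito replicate 2, with 4 and 5 reads for Actn2 and 4 and 6 for Tcap. The other 9 of the 13 common genes tested were higher in replicate 1, and a heart or skeletal source was not tested.

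The replicates therefore ordered the classes differently. BAT-Mito replicate 1 was above replicate 2 for 13 of 14 fast genes, 9 of 13 common genes, 2 of 4 slow genes and 0 of 2 heart genes tested, against 48.0% of all genes tested. The median log2 ratio of replicate 1 to replicate 2 was 1.75 for fast, 0.73 for common, 0.30 for slow and -1.86 for heart genes, and 0.00 for all genes tested. In BAT-total replicate 2 was above replicate 1 for 12 of 14 fast, 11 of 13 common, 1 of 4 slow and 1 of 2 heart genes, against 43.2% of all genes tested. The median log2 ratio of BAT-total replicate 2 to replicate 1 was 1.04 for fast, 0.59 for common, -1.5 for slow and -0.29 for heart genes, and -0.04 for all genes tested. Across the 14 fast genes, which share libraries and depth, Spearman's rho between libraries was 0.78 for the BAT-Mito pair, 0.926 for the BAT-total pair and 0.61 to 0.782 for the 4 pairs of a BAT-Mito with a BAT-total library, as a description.

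**Figure D5:**
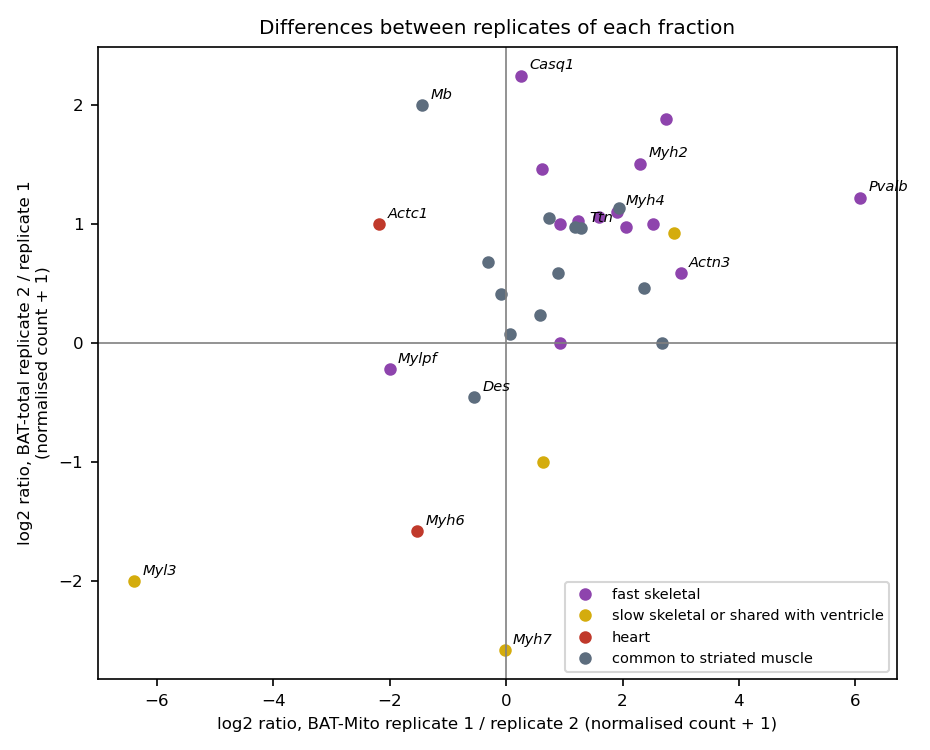
Each point is a member tested, with the log2 ratio of BAT-Mito replicate 1 to replicate 2 on the x axis and that of BAT-total replicate 2 to replicate 1 on the y axis (normalised count + 1), coloured by class. Most fast genes lie in the upper right, higher in BAT-Mito replicate 1 and BAT-total replicate 2, while Myh6 and Actc1 lie left of 0.

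Other muscle genes were read from lists beside the members. Of 25 other skeletal muscle genes 21 were listed, of which 6 were higher in both BAT-Mito libraries (5.2% of all genes) and 7 lower in both (51.7%), the 7 with 0 reads in BAT-Mito. BAT-total values of these 7 lay under the floor of 25.0 and 20.7 units, so that a lower level is not shown. Of the 9 tested, 4 had a BAT-total mean under 10, 0 were called higher with limma (0.803% of all genes tested) and 2 with edgeR (3.06%). The list held 0.141% and 0.0564% of the nuclear signal in BAT-Mito and 0.0156% and 0.0246% in BAT-total. Xirp2, an actin-binding protein of striated muscle, had 133 and 55 in BAT-Mito and 21 and 32 in BAT-total. Pygm, the muscle glycogen phosphorylase, had 75 and 55 against 9 and 27. As for the fast members, BAT-Mito replicate 1 was the higher of the pair for both genes. Of the 6 myogenic regulators and satellite cell genes only Myf6 (0 and 0 against 2 and 0) and Mef2c (8 and 0 against 31 and 39) were listed, and neither was higher in BAT-Mito.

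Of 19 other heart genes 7 were listed, of which 0 were higher in both BAT-Mito libraries (5.2% of all genes) and 3 were lower in both (51.7%). Of these 3, Casq2 had 0 reads in BAT-Mito and 3 and 4 units in BAT-total, under the floor, so that a lower level is not shown. The 7 listed genes held 0.0521% and 0.132% of the nuclear signal in BAT-Mito and 0.112% and 0.109% in BAT-total. Most of this was Fabp3, the heart-type fatty acid binding protein that brown adipocytes also make (166 and 400 in BAT-Mito, 509 and 410 in BAT-total), and Atp2a2, the widely made calcium pump (58 and 159 against 299 and 360). Ryr2, the cardiac calcium release channel, had 33 and 7 against 7 and 11. Defining heart genes such as Tnni3, Tnnt2 and Nppa were not analysed here, so that the heart isoforms rest on Myh6 and Actc1.

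Markers of other cell types moved with the libraries as well, and their part in the results was not tested. Liver genes (11 of 12 listed) held 2.50% and 0.255% of the nuclear signal in BAT-Mito and 0.0644% and 0.0291% in BAT-total, with 10 of 11 higher in both BAT-Mito libraries (5.2% of all genes) and 10 of 11 called higher with edgeR (3.06% of all genes tested), 8 of the 11 having a BAT-total mean under 10. Alb had 4943 and 393 in BAT-Mito and 97 and 3 in BAT-total, Apoa1 1639 and 97 against 16 and 1, and Serpina3k 1406 and 62 against 25 and 3. Liver genes were thus high in BAT-Mito replicate 1, as the fast genes were, but in BAT-total they were higher in replicate 1, where the fast genes were lower.
The 12 brown adipocyte genes held 0.801% and 1.99% in BAT-Mito and 2.50% and 2.24% in BAT-total, with 11 of 12 lower in both BAT-Mito libraries, against 51.7% of all 17259 genes, and 1 called lower with edgeR (0.596% of all genes tested). Ucp1 had 1290 and 3554 in BAT-Mito and 4819 and 4185 in BAT-total, Fabp4 957 and 2823 against 5208 and 4746, and Lpl 816 and 1263 against 3804 and 3176. These 3 markers of the labelled tissue were present in all 4 libraries, and the share of the list was lowest in BAT-Mito replicate 1, where the sarcomere share was highest.
The 5 endothelial genes held 0.0205% and 0.00150% against 0.119% and 0.126%, with 5 of 5 lower in both BAT-Mito libraries, against 51.7% of all genes (Kdr 25 and 7 against 335 and 383), and 3 called lower with edgeR, against 0.596%. Egfl7 (0 and 0 against 75 and 98) was called lower with limma (adjusted p = 0.0249), a call that was lost with the replicate number as a block (adjusted p = 0.158), a pseudocount of 10 (0.0724), a trend and robust prior (0.0672) and on leaving out either BAT-total library (0.439 and 0.446). The 10 smooth muscle genes held 0.0689% and 0.0580% against 0.05001% and 0.0450%, with Myh11 at 158 and 21 against 95 and 77, Mylk at 67 and 55 against 72 and 60 and Synm at 33 and 48 against 54 and 61. The 5 blood cell genes held 0.0507% and 0.136% against 0.0401% and 0.0861%, and the 5 cytosolic references 0.265% and 0.581% against 0.335% and 0.350%. Of the 10 smooth muscle genes 2 were higher in both BAT-Mito libraries (5.2% of all genes) and 3 were lower in both (51.7%). The 2 were Myl9 (33 and 55 against 19 and 20) and Lmod1 (8 and 7 against 6 and 2), named after their values were seen. With limma 0 of the smooth muscle genes were called (0.803% of all genes tested higher, 4.41% lower), and with edgeR 0 (3.06% and 0.596%). At an unadjusted p under 0.05 limma found 0, against 1488 of the 8215 genes tested.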

How the data were processed

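RNA of 2 BAT-Mito and 2 BAT-total libraries was prepared with a stranded low-input kit and sequenced single end by the authors. Per the labels, reads were trimmed with Trimmomatic 0.39, aligned to mm10 with STAR 2.7.10a, counted with featureCounts 2.0.2 and scaled with DESeq2 1.30.1. The deposited table holds signal, namely normalised counts rounded to whole numbers, and 0 other columns of samples. Reads spanning genes or positions were left out by the authors, which affects the fast myosins, Myh6 and Myh7. It also affects Myl1, with 91.9% of its 75-base stretches unique. Whether the counting used strand is not given in the sources used here, and without strand members whose exons overlap genes of the other strand are affected too, with 74.0% of exon bases for Tnnc2, 64.7% for Pln, 31.9% for Mb and 21.9% for Atp2a1.

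From these values, reads were recovered in BAT-Mito, where 100.0% of values up to 20000 were whole reads within 1 unit, but not in BAT-total. Groups follow the treatment labels. log2(value + 1) was compared with limma 3.58.1 in R 4.3.3 for genes with a mean of at least 10, with Benjamini-Hochberg adjustment at 0.05. edgeR 4.0.16 and DESeq2 1.42.0 on reads were alternatives, beside other scalings, filters, pseudocounts, the replicate number as a block and leaving out each library. Scripts were tested on simulated data. Shares use nuclear genes without the 17 that match mitochondrial transcripts of GENCODE M21 (BLAST 2.17.0, at least 90% identity over 50 bp). Exon lengths are from the same annotation, in which 99.1% of the listed genes and all 38 listed members had the same coordinates. The replicate numbers are not said to pair libraries.

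All members are described. Full values were planned for members with a mean of at least 50 and for called members, the others in short. In the text, values per library are given for almost all listed members. Fold changes with standard errors are given for only some members of the planned set. From each other list (other skeletal muscle, myogenic regulators and satellite cells, other heart, smooth muscle, brown adipocyte, liver, endothelium, blood cells, cytosolic references) up to 3 genes with the highest mean and called genes were named. For 1 listed gene, no value is reported here. The members and lists were chosen with earlier results of these data known.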

Additional observations from a re-analysis of the deposited data

How the results depend on the processing

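The count of sarcomere genes called higher was 0 in limma and stayed at 0 with a pseudocount of 10, the replicate block, scaling to the library total (CPM) over all genes and a filter on the BAT-total mean alone, an alternative chosen after seeing the data. It became 5 over all genes with any count (Tnnc1, Myh6, Actn2, Myom1 and Tcap; 0.829% of all genes there), 1 with a mean of at least 50 (2.58%), 1 with TMM (0.828%), 1 with median ratios (0.84%), 2 with CPM over nuclear genes without mitochondrial matches (0.889%), 1 with a trend and robust prior (0.816%), 11 with edgeR (3.06%), 10 with DESeq2 (3.09%) and 15 of 22 with edgeR and the filter on the BAT-total mean alone (2.18%), also chosen after seeing the data. The filter moved edgeR's p-values far, for Myh4 from 0.0377 to 4.085e-07 after adjustment. Leaving out 1 library gave 0 to 10, namely 7 without BAT-Mito replicate 1 (5.68% of all genes), 10 without BAT-Mito replicate 2 (7.57%) and 0 without either BAT-total library; a lone library is then assumed to vary like the other group. With all 4 libraries in the fit the count called lower was 0, and 28 of 33 with CPM over all genes (96.9% of all genes). The members' median relative to all genes tested, 3.17, ranged from 2.13 to 3.48 on leaving out a library and was 2.23 with a pseudocount of 10.

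Under the replicate block, which the labels do not establish as a pairing, the relative median was 3.17 and 0 members were called; deviations of libraries with the same number correlated at 0.11 across genes. Over all genes the block left 0 calls of 66 higher and 362 lower, Egfl7 included (adjusted p = 0.158).

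Scaling to the library total moved all genes. With CPM over all genes the median of all genes tested was -7.15, and all but 3 of 33 members had negative log2 fold changes, Myl1 (-6.91) and Pvalb (-5.71) as with the deposited scaling, while these 28 turned: Myh1 -4.08, Myh2 -4.10, Myh4 -4.54, Mylpf -4.39, Mybpc2 -4.01, Actn3 -4.07, Tnnc2 -3.68, Tnni2 -5.30, Tnnt3 -5.24, Myoz1 -2.62, Atp2a1 -5.23, Casq1 -5.0024, Myl3 -0.93, Tnnc1 -0.0186, Mybpc1 -5.40, Acta1 -5.53, Actn2 -3.91, Tpm1 -5.16, Tpm2 -5.88, Ttn -5.06, Neb -5.21, Myom1 -5.04, Myom2 -4.16, Tcap -3.66, Des -5.74, Ckm -4.60, Mb -2.93 and Ryr1 -4.57. Relative to that median the members lay 2.62 higher. The difference of shares (BAT-Mito minus BAT-total, percentage points), 0.461 for fast, 0.0410 for slow, 0.0910 for heart and 0.760 for common genes, became -0.0495, -0.000328, 0.00475 and -0.128 with all nuclear genes as denominator, and -0.0321, -0.00110, 2.812e-05 and -0.0750 with the whole table. Without the most abundant member it was 0.239 for fast, 0.0186 for slow, 0.0156 for heart and 0.243 for common genes. Leaving out BAT-Mito replicate 1 or 2 gave 0.181 and 0.742 for fast, 0.139 and 0.0433 for heart and 0.405 and 1.114 for common genes. Myl1, -0.32, became 0.29 with CPM over nuclear genes, 0.0294 with TMM, 0.33 with median ratios, 0.31 with edgeR (0.41 with the filter on BAT-total), 0.47 with DESeq2 and 0.15 without BAT-Mito replicate 2 (-0.78 without replicate 1). Pvalb, -0.74, became 1.69 with edgeR (1.79 with that filter), 2.01 with DESeq2, 0.26 with a pseudocount of 10 and 2.31 without BAT-Mito replicate 2. On leaving out 1 library, Pvalb ranged from -3.78 to 2.31, Tnni2 from -0.36 to 2.39, Mybpc1 from -0.78 to 2.10, Myl3 from -1.0 to 5.39 and Casq1 from -0.21 to 2.04, their lowest values falling without BAT-Mito replicate 1, except for Myl3 (without BAT-Mito replicate 2) and Casq1 (without BAT-total replicate 1). The cause was not tested. Depth limits the low members: most BAT-Mito values of the heart and slow genes rest on fewer than 20 reads.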

Other observations

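Cox6a2, the subunit of cytochrome c oxidase made in heart and skeletal muscle and in brown fat, had 25 and 41 normalised counts in BAT-Mito (3 and 6 reads) and 0 and 1 in BAT-total. Both BAT-Mito libraries lay above both BAT-total libraries, as for 5.2% of all genes (limma adjusted p = 0.0629, edgeR adjusted p = 0.0767). With a BAT-total mean of 0.5, Cox6a2 entered the test only through BAT-Mito, so that its p-values are no support for a difference. Cox6a2 was chosen after its values were seen. Among the members, Spearman's rho between the log2 fold change and the length of the exons was 0.019 over the 33 genes tested, given as a description. Of these, 11 passed the filter only through BAT-Mito, so that no conclusion on exon length is drawn. Ttn, Neb and Ryr1, with the longest exons of the skeletal genes, and Tnnc2 and Tcap, with the shortest, were all higher in both BAT-Mito libraries.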
